A study of Mus musculus with 30 samples.

Results

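The CCN family of secreted matricellular proteins was examined in primary mouse tail tendon fibroblasts whose actomyosin contractility was lowered with drugs. Members were chosen by gene name: Cyr61 (Ccn1), Ctgf (Ccn2), Nov (Ccn3), Wisp1 (Ccn4) and Wisp2 (Ccn5). They are 5 of the 35973 genes in the RNA tables, and 32 of the 16367 chromatin site entries in the authors' 5 site tables carry the name of a member. RNA was sequenced from cells given the solvent DMSO, from cells given 10 µM blebbistatin, which blocks the ATPase of myosin II, and from cells given 30 µM Y27632, a kinase inhibitor that also lowers contractility, with 3 libraries per group. Open chromatin was profiled by ATAC under the same 3 treatments, again with 3 libraries each. A further 12 genomic DNA libraries formed 4 groups of 3 that received neither drug, blebbistatin at 10 µM, doxycycline at 10 ng/mL, or both. Every group had the wildtype genotype and was treated in medium with 0.1% serum, per the labels. The labels do not say how long the cells were treated, what doxycycline induced, or whether the libraries of a group came from separate animals or cultures, so the p-values measure only the spread between these libraries.

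CCN proteins act as signals in the extracellular matrix rather than as structural components. They are built from modules that resemble insulin-like growth factor binding proteins, von Willebrand factor type C repeats, thrombospondin repeats and, in all but Wisp2, a cystine knot, and through these they bind integrins, syndecans, LRP receptors, growth factors and fibronectin. Cyr61 and Ctgf are the standard readouts of the mechanically regulated co-activators YAP and TAZ, which reach DNA through TEAD factors, and Ctgf is also a classical target of TGF-beta. In tendon, Ctgf is known for its use in driving progenitor cells towards a tendon fate and in healing.

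All 5 members differed between blebbistatin and DMSO, 4 of them lower and 1 higher. Cyr61 fell to 24.8% of its DMSO level, Ctgf to 33.1%, Wisp1 to 39.9% and Wisp2 to 66.8%, and Nov rose to 291%. Under Y27632 the family kept a different order: Wisp1 fell to 63.9%, Wisp2 to 86.9% and Cyr61 to 91.4% of DMSO, Nov rose to 129%, and Ctgf stood at 92.5% without passing the test. Calls are genes whose Benjamini-Hochberg adjusted p was under 0.05 in a limma fit of log2(normalised count + 1) over every gene averaging 10 normalised counts or more. Under blebbistatin 5 of 5 members were called, where 53.0% of the 14882 genes tested were called (26.1% higher and 26.9% lower). Under Y27632 4 of 5 were called, where 35.9% of 14833 genes were called (18.1% higher and 17.8% lower). Calls were thus common among all genes. The plot of member values shows each library.

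**Figure D1:**
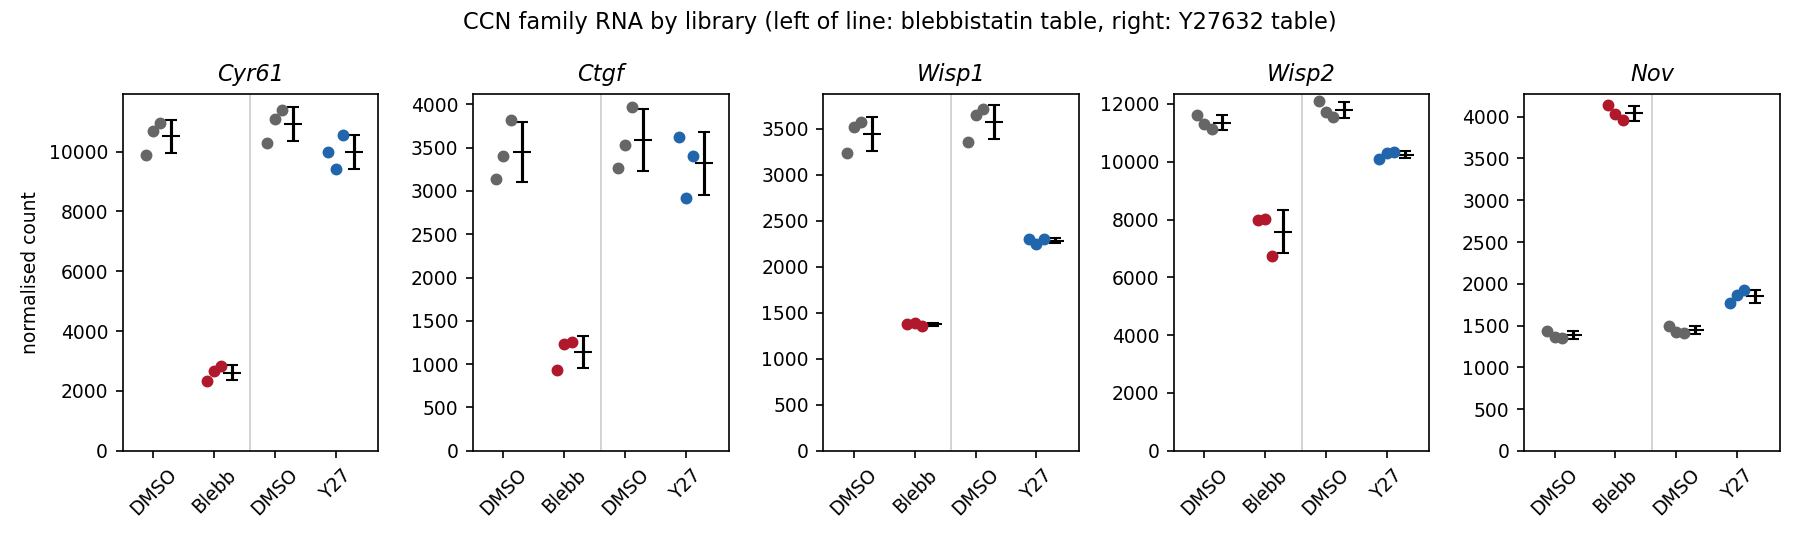
Normalised counts (y axis, linear, starting at 0) of the 5 CCN members in each RNA library, by group (x axis); the left part of each panel is the table of DMSO and blebbistatin, the right part that of DMSO and Y27632, which the authors scaled separately. Each point is 1 library and the bars are the mean ± SD of 3. The 3 blebbistatin libraries lie apart from DMSO in every panel, below it for Cyr61, Ctgf, Wisp1 and Wisp2 and above it for Nov; with Y27632 the Cyr61 and Ctgf points overlap those of DMSO.

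The libraries held 23375386 to 37061737 reads in genes. Replicates of every group differed beyond counting noise, with a chi-square per degree of freedom of 2.52 to 7.49, so no library was counted as a copy of another. The labelled cell type was checked against marker genes. Fibroblast markers, 6 of 6 detected, summed to 26160 to 27750 RPM (reads scaled to the library total) in DMSO, 25510 to 27210 in blebbistatin and 25900 to 27130 in Y27632, and all 5 tendon markers were detected (Scx, Tnmd, Mkx, Fmod, Thbs4), at 1197 to 1254, 1144 to 1309 and 1380 to 1403. Thbs4 made up most of the tendon sum (means 1052, 1041 and 1157 RPM in DMSO, blebbistatin and Y27632). Scx was low, with means of 2.36, 2.53 and 2.90 RPM and 49 to 102 reads per library. Mkx and Fmod had higher means with both drugs than in DMSO, whereas Tnmd had a lower mean with blebbistatin (33.34, 29.96 and 37.17). Summed markers of other cell types differed between the treatments. The 4 leukocyte and macrophage markers, all detected, summed to 46.4 to 53.3 RPM in DMSO, 69.7 to 80.8 in blebbistatin and 64.2 to 75.0 in Y27632. The 3 Schwann cell markers, all detected, gave 3.94 to 4.82, 9.68 to 10.5 and 5.50 to 6.51, the 3 chondrocyte markers 5.09 to 6.10, 8.21 to 8.87 and 8.04 to 8.18, and the 4 smooth muscle and pericyte markers 74.8 to 82.0, 90.0 to 99.98 and 82.3 to 103. All the leukocyte and macrophage markers (Ptprc, Cd68, Adgre1 and Csf1r) had higher means with both drugs than in DMSO. Single genes carried the Schwann, chondrocyte, and smooth muscle and pericyte sums. S100b made up most of the Schwann sum and Sox9 most of the chondrocyte sum. Cspg4 (mean 73.96 RPM in DMSO, 91.99 in blebbistatin and 90.02 in Y27632) made up most of the smooth muscle and pericyte sum, where Rgs5 had lower means with both drugs (3.48, 2.52 and 2.92). The 4 endothelial markers summed to 118 to 119 in DMSO, 78.5 to 88.5 in blebbistatin and 106 to 111 in Y27632, which was the course of Tek alone (115, 78.7 and 104). The other endothelial markers, Pecam1, Cdh5 and Kdr, had higher means with both drugs than in DMSO. Epithelial markers reached at most 0.740 and adipocyte markers at most 0.108. Their part in the changes of the CCN genes was not tested. In bulk RNA, fewer cells of a type and less RNA per cell cannot be told apart.

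The chromatin data are the authors' deposited tables of differential sites, each with a mean log2 signal per group, a log2 fold and a false discovery rate (FDR), and with no value per library. Sites were assigned to genes by the authors' annotation. Cyr61 has 14 entries at 8 places, Ctgf 16 entries at 9 places, Wisp1 and Wisp2 have 1 entry each, and Nov has 0. The authors' deposited ATAC table of blebbistatin against DMSO holds 970 sites, 1.54% of an estimated 62846 tested, with 98.2% of them lower, and 5 of the 970 belong to members, all lower. Their ATAC table of Y27632 holds 207 sites, 0.335% of those tested, 176 of them lower, with 2 member sites, both lower. In the doxycycline experiment, the authors' deposited table of blebbistatin without doxycycline holds 1231 sites (1.78%, of which 99.0% lower) with 11 member sites, all lower. Their table of doxycycline without blebbistatin holds 7613 sites (9.36%, of which 4.15% lower) with 8 member sites, all higher. Their table of blebbistatin in cells with doxycycline holds 6346 sites (8.75%, of which 99.8% lower) with 6 member sites, all lower. Member sites thus took the direction that most sites of each table had. Of the 32 entries, 21 overlap an entry of another table by at least 1 base. The ATAC tables share the DMSO group. In the doxycycline experiment, both tables without blebbistatin or doxycycline in their reference share the group with neither drug. The group with doxycycline alone is the treated group of 1 table and the reference of another. Entries at the same place are therefore not independent of each other.

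Cyr61 encodes an angiogenic, integrin-binding protein and is an immediate early gene as well as a YAP/TAZ target. The DMSO libraries gave 9898, 10690 and 10942 normalised counts and the blebbistatin libraries 2347, 2666 and 2818. Every blebbistatin library lay far below every DMSO library. The log2 change was -2.01 (SE 0.0593, 95% interval -2.14 to -1.88, limma adjusted p = 7.30e-11), the 67th lowest of 14882 genes. In the other table the DMSO libraries gave 10290, 11098 and 11371 and the Y27632 libraries 9974, 9407 and 10548. The highest Y27632 library lay above the lowest DMSO library, so the groups overlap. The log2 change with Y27632 was -0.13 (SE 0.0449, 95% interval -0.23 to -0.03, limma adjusted p = 0.0372). That call depended on single libraries: the limma adjusted p was 0.119 without DMSO replicate 2, 0.116 without DMSO replicate 3, 0.0709 without Y27632 replicate 1 and 0.162 without Y27632 replicate 2. The order of Cyr61 levels was therefore DMSO and Y27632 close together and blebbistatin well below both.

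Among the places in chromatin assigned to the members, only 1 stands in all 5 of the authors' tables, a region about 52.9 kb upstream of the Cyr61 start that the authors annotate as intergenic. At chr3:145702797-145703054 (mm10) the authors' deposited ATAC tables give a log2 fold of -1.61 (FDR 0.0133) with blebbistatin and -1.37 (FDR 0.00997) with Y27632. At overlapping positions the authors' deposited tables of the doxycycline experiment give -1.36 (FDR 0.000228) for blebbistatin alone, 1.26 (FDR 3.71e-07) for doxycycline alone and -1.03 (FDR 0.00109) for blebbistatin in cells with doxycycline. A neighbour about 53.6 kb upstream is lower with blebbistatin in both experiments, by -1.56 and -1.20 in the authors' deposited tables. The region was thus lower in each table in which contractility was inhibited and higher in the table of doxycycline. These comparisons share groups, so they are not independent of each other.

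The ATAC table of blebbistatin also lists, per site, the matches to a TEAD motif, the DNA element that YAP and TAZ partners recognise. The matches at member sites are shown because they are the letters the authors list inside the sites that were lower; each is written 5′ to 3′ on the strand of the motif, with its 6-base core in capitals.
Cyr61, 52.9 kb upstream, first match: tGGAATGcag
Cyr61, 52.9 kb upstream, second match: aGGAATTtga
Cyr61, 53.6 kb upstream, first match: tGGAATGttt
Cyr61, 53.6 kb upstream, second match: aGGAATGtct
Ctgf, 119 kb upstream, first match: aGGAATTcca
Ctgf, 119 kb upstream, second match: aGGAATTtgg
Wisp2, 10.95 kb upstream: aGGAATGtgg
A match is listed at 4 of the 5 member sites, beside 603 of 970 sites (62.2%) in the whole table. The core GGAATG makes up 4 of the 7 member matches, beside 64.0% of all 837 matches listed, and the variant GGAATT makes up 226 of the 837. Both Ctgf matches have the variant core and the single Wisp2 match has GGAATG. A match is a description of letters, and binding was not measured.

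Close to the Cyr61 gene the tables of the doxycycline experiment hold further sites that the ATAC tables do not list. Past the 3′ end of the gene, between 3.59 and 4.54 kb beyond its start, 4 neighbouring sites are lower with blebbistatin without doxycycline. The authors' deposited table gives them log2 folds of -1.39, -1.56, -1.52 and -1.44, with FDR from 1.21e-08 to 5.44e-05. The site at chr3:145645918-145646074, annotated to the transcription end of Cyr61, is the 6th by p-value of an estimated 68975 sites tested in that comparison. A site 16.9 kb beyond the start has -1.19 with blebbistatin and 1.23 with doxycycline in the authors' deposited tables. With 7 sites, Cyr61 has more sites in the table of blebbistatin without doxycycline than all but 1 of the 995 genes named there, where the median is 1 site and the most is 9. The 4 neighbouring sites are counted singly among these 7. In the table of doxycycline without blebbistatin Cyr61 has 3 sites, and 216 of 5134 genes have more. For blebbistatin in cells with doxycycline it has 1 site, and 1313 of 4000 genes have more. The ATAC tables hold 2 sites with blebbistatin (28 of 788 genes have more) and 1 with Y27632 (13 of 191).

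The Cyr61 promoter appears in the table of doxycycline without blebbistatin and in no other. Promoter sites make up 18.7% of that table and 0.483% to 1.78% of the other 4. The authors' deposited table gives the site at chr3:145649703-145650174 a log2 fold of 1.37 (FDR 4.04e-08), from a mean log2 signal of 8.18 without doxycycline to 9.56 with it. The 250 bases before the Ccn1 start are shown because 189 of them lie in this site. They run at chr3:145649986-145650235 on the minus strand (RefSeq, GRCm38.p6), and the capitals mark the 1 match to the TEAD core.
Ccn1 promoter: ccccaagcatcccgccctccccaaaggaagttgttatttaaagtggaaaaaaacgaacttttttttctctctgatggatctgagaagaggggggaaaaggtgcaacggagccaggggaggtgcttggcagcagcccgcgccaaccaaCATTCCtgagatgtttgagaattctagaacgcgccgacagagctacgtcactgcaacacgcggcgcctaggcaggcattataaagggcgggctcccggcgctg
The core GGAATG was searched on both strands of the window from 250 bases before to 50 after the start, and it occurs once, on the opposite strand, 103 bases upstream. Of 32851 mouse promoters of the same length, 14.7% hold it. The AP-1 element TGANTCA, held by 7.81% of those promoters, and the CArG box of serum response factor, held by 1.63%, do not occur in the window. Promoter sequence was at hand for 1 of the 5 members.

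**Figure D2:**
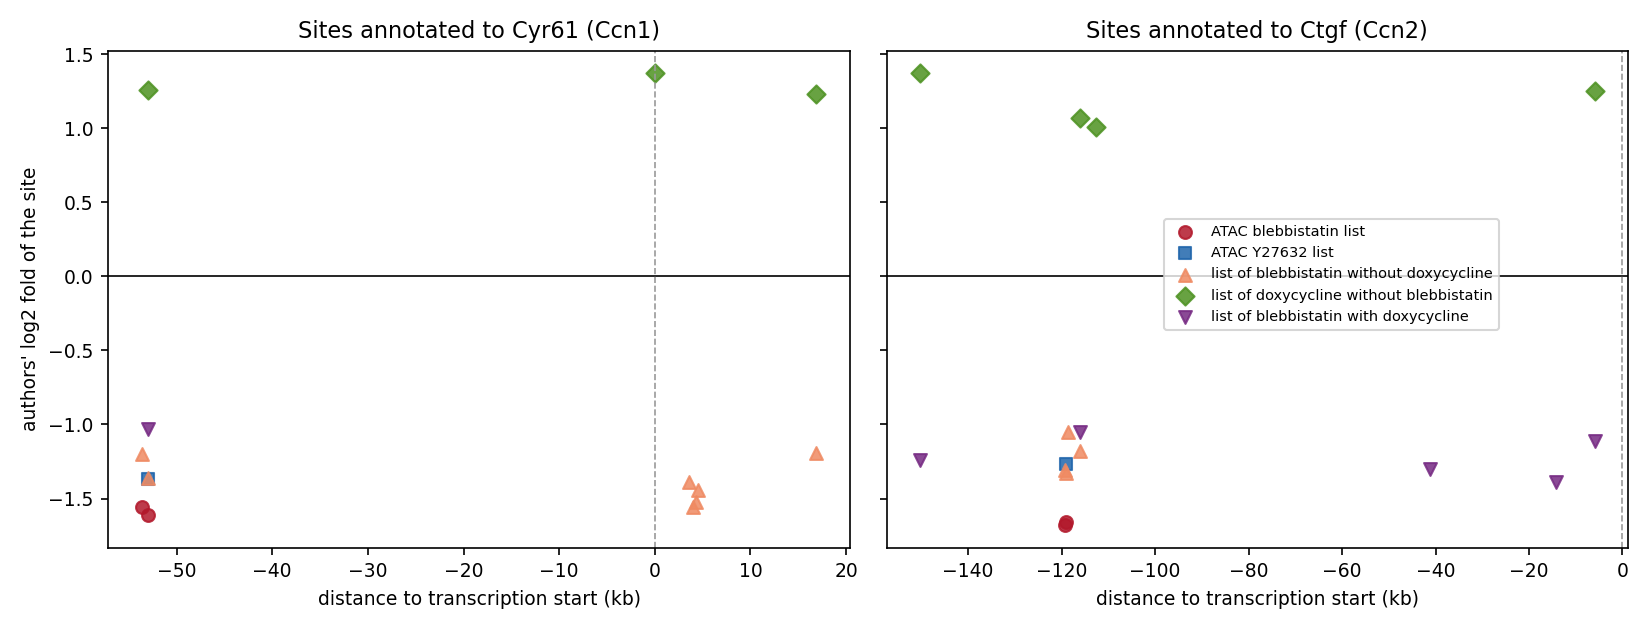
Log2 fold (y axis) of each site annotated to Cyr61 (left) and Ctgf (right) against its distance from the transcription start in kb (x axis, negative upstream; the dashed line is the start), from the authors' 5 deposited tables, which the symbols tell apart. Green diamonds (doxycycline) lie above 0 and all other symbols lie below 0; most Ctgf sites lie over 100 kb upstream, whereas the Cyr61 sites gather at 53 kb upstream and near the gene.

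Ctgf encodes connective tissue growth factor, which binds TGF-beta, BMP4 and fibronectin and promotes matrix production. The DMSO libraries gave 3137, 3400 and 3823 normalised counts and the blebbistatin libraries 933.8, 1238 and 1252. The groups do not overlap. The log2 change was -1.60 (SE 0.0995, 95% interval -1.82 to -1.39, limma adjusted p = 4.52e-08), the 139th lowest of all genes tested. In the other table DMSO gave 3261, 3530 and 3973 and Y27632 gave 3628, 2918 and 3407. The Y27632 libraries lie on both sides of the lowest DMSO library. The log2 change of -0.11 (SE 0.0759, limma adjusted p = 0.267) was not called, and its 95% interval of -0.28 to 0.05 leaves room for a small decrease. Single libraries moved this value: it was -0.18 without DMSO replicate 1 or without Y27632 replicate 1, -0.038 without DMSO replicate 3 and -0.024 without Y27632 replicate 2. None of the 6 fits that left out 1 library called Ctgf. Among the members Ctgf varied most between replicates, with a coefficient of variation of 10.0% in DMSO and 15.8% in blebbistatin. The gene model of Ctgf shares 362 bases with that of Gm15270, a long noncoding gene, and whether the counting used strand is not given in the sources used here, so reads in that stretch cannot be assigned with certainty.

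The sites assigned to Ctgf lie far upstream, in introns of a noncoding transcript (Gm15270 in RefSeq) according to the authors' annotation, and 6 of the 9 places are more than 100 kb from its start. The pair of sites about 119 kb upstream is the one in the ATAC tables. For chr10:24476377-24476545 the authors' deposited ATAC tables give -1.66 (FDR 0.00959) with blebbistatin and -1.27 (FDR 0.0337) with Y27632, and the table of blebbistatin without doxycycline gives -1.33 (FDR 0.000271) at the same place. The site next to it has -1.68 and -1.31 with blebbistatin in the authors' deposited tables of the 2 experiments, and its ATAC entry lists no TEAD match. The place about 116 kb upstream has -1.18 with blebbistatin, 1.07 with doxycycline and -1.05 with blebbistatin in cells with doxycycline, per the authors' deposited tables. In the same way the sites 150 kb and 5.98 kb upstream have 1.37 and 1.25 with doxycycline and -1.24 and -1.11 when blebbistatin was added to it, per the authors' deposited tables. Both comparisons use the group with doxycycline alone, with mean log2 signals of 7.55 and 7.37 at these sites. Their opposite folds are therefore not independent. The remaining places stand in 1 of the authors' deposited tables each. They are 119 kb upstream (-1.05, blebbistatin alone), 113 kb upstream (1.01, doxycycline), 41.1 kb upstream (-1.30, blebbistatin in cells with doxycycline) and 14.2 kb upstream (-1.39, the same comparison). The start of Ctgf itself lies in a site that the authors' annotation gives to the first exon of the same noncoding transcript, without a gene name, and that is therefore not among the 16 entries. At this site, chr10:24595300-24596062, the authors' deposited table of doxycycline without blebbistatin gives a log2 fold of 1.04 (FDR 8.35e-06), from a mean log2 signal of 8.91 to 9.95. No entry at the start of Ctgf stands in the other 4 tables, which hold only sites past the authors' thresholds. A further site without a gene name, past the 3′ end of Ctgf at chr10:24608256-24608353, has -1.12 (FDR 0.00315) in the authors' deposited table of blebbistatin in cells with doxycycline.

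Wisp1 and Wisp2 are known as genes induced by Wnt signalling. For Wisp1, which supports osteoblast and fibroblast growth, the DMSO libraries gave 3233, 3519 and 3573 normalised counts and the blebbistatin libraries 1376, 1391 and 1355. The blebbistatin libraries lay close together, with an SD of 18.1, and well below DMSO. The log2 change was -1.32 (SE 0.0427, 95% interval -1.42 to -1.23, limma adjusted p = 1.54e-10), the 226th lowest. In the other table DMSO gave 3361, 3653 and 3713 and Y27632 gave 2301, 2249 and 2307, again without overlap. The log2 change with Y27632 was -0.64 (SE 0.0402, 95% interval -0.73 to -0.56, limma adjusted p = 8.75e-08), the 524th lowest of 14833 genes and the lowest of the 5 members. The order of Wisp1 levels was DMSO, Y27632, blebbistatin, and each treatment lay apart from DMSO within its table. In chromatin, Wisp1 has its promoter, like Cyr61 and the Ctgf start, at chr15:66890882-66891640, in the authors' deposited table of doxycycline without blebbistatin, with a log2 fold of 1.03 (FDR 3.09e-06). Within 100 kb of the gene, the authors' deposited tables hold a site they assign to Sla that is lower with blebbistatin alone (-1.11). An overlapping site at the same place is higher with doxycycline (1.17).

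Wisp2 is the member that lacks the cystine knot and is described as a restraint on fibrosis and on proliferation. Its DMSO libraries gave 11631, 11300 and 11119 normalised counts and its blebbistatin libraries 7979, 8029 and 6725. The groups do not overlap, and blebbistatin replicate 3 lay below the other two. The log2 change was -0.59 (SE 0.0567, 95% interval -0.71 to -0.46, limma adjusted p = 2.63e-06), the 1118th lowest. In the other table DMSO gave 12091, 11731 and 11555 and Y27632 gave 10104, 10306 and 10326. The log2 change of -0.20 (SE 0.0293, 95% interval -0.27 to -0.14, limma adjusted p = 0.000154) was small but the groups did not overlap. Its 1 site, at chr2:163809670-163810093 and 10.95 kb upstream, has a log2 fold of -1.66 (FDR 0.0103) in the authors' deposited ATAC table of blebbistatin, where its TEAD match is among those shown above.

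Nov, a Notch-binding member that has been described as regulated oppositely to Cyr61 and Ctgf, moved against the others. The DMSO libraries gave 1439, 1366 and 1356 normalised counts and the blebbistatin libraries 4138, 4028 and 3956. All blebbistatin libraries lay above all DMSO libraries. The log2 change was 1.54 (SE 0.0379, 95% interval 1.46 to 1.63, limma adjusted p = 1.83e-11), the 214th highest of 14882 genes. In the other table DMSO gave 1496, 1418 and 1409 and Y27632 gave 1772, 1861 and 1927. The groups did not overlap, and the log2 change with Y27632 was 0.36 (SE 0.0431, 95% interval 0.27 to 0.46, limma adjusted p = 3.07e-05). The order of Nov levels, blebbistatin, Y27632, DMSO, is that of Wisp1 reversed. No site in any of the authors' 5 tables is assigned to Nov, and none lies within 100 kb of it. Of the genes in the RNA tables that could be matched, 3.61% have at least 1 site in the ATAC table of blebbistatin and 25.4% in the table of doxycycline, so having no site was the common case. The groups failed to overlap for 5 of 5 members with blebbistatin, where 60.2% of genes did not overlap, and for 3 of 5 with Y27632, where 48.1% did not. The family has a further gene, Wisp3 (Ccn6), whose 0 to 5 reads per library were too few for a test.

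Blebbistatin and Y27632 were compared with each other on whole reads of the 9 libraries, since the tables had been scaled separately (edgeR quasi-likelihood test, Benjamini-Hochberg). All 5 members differed between the treatments, where 53.1% of 14955 genes did (26.9% higher and 26.2% lower with blebbistatin). Cyr61 was lower with blebbistatin than with Y27632 by a log2 difference of -1.87 (edgeR adjusted p = 1.67e-11) and Ctgf by -1.47 (edgeR adjusted p = 3.69e-08). These are the 37th and the 104th lowest of all genes tested. Wisp1 differed by -0.67 (edgeR adjusted p = 8.18e-09) and Wisp2 by -0.37 (edgeR adjusted p = 3.48e-05). Nov was higher with blebbistatin by 1.19 (edgeR adjusted p = 1.35e-11). The 95% intervals of a limma fit on the same libraries were -2.01 to -1.75 for Cyr61, -1.72 to -1.26 for Ctgf, -0.76 to -0.59 for Wisp1, -0.50 to -0.27 for Wisp2 and 1.10 to 1.26 for Nov. The treatments thus separated the family unevenly: Cyr61 and Ctgf lost most of their RNA with blebbistatin and little with Y27632. With Y27632 Wisp1 (63.9% of DMSO), Wisp2 (86.9%) and Nov (129%) lay between DMSO and blebbistatin, without overlap with DMSO. The drugs were given at different doses, 10 µM and 30 µM, and the 2 contrasts against DMSO share the DMSO libraries.

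**Figure D3:**
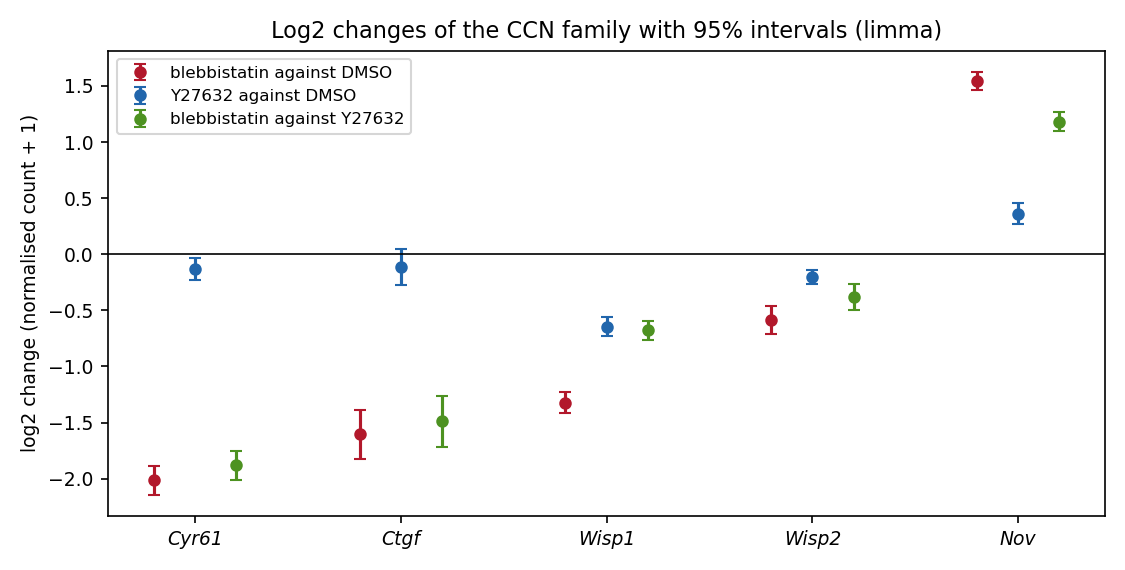
Log2 change (y axis) of each CCN member (x axis) for blebbistatin against DMSO, Y27632 against DMSO and blebbistatin against Y27632. Points are limma estimates and bars their 95% intervals. The contrasts against DMSO use normalised count + 1. Blebbistatin against Y27632 uses jointly scaled count + 1, although the axis label names only the former. Cyr61 and Ctgf lie near 0 with Y27632 and near -2.01 and -1.60 with blebbistatin, and Nov is above 0 in all 3 contrasts.

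Likeness across the 9 libraries was measured as the root mean square difference of log2 jointly scaled counts, each gene centred on its DMSO mean, over 11442 genes with a mean of at least 100. Within the family, Cyr61 and Ctgf were nearest to each other (0.251), followed by Ctgf and Wisp1 (0.373), and Cyr61 and Nov were farthest apart (2.07). Several genes outside the family lay nearer to each member than any other member did. Nearest to Cyr61 were Arhgap20 (0.0999), Cemip (0.113) and Cdh6 (0.167), and nearest to Ctgf were Rnd3 (0.154), Slc24a3 (0.181) and Hs3st3b1 (0.184). Cemip encodes a hyaluronan-degrading protein. Nearest to Wisp1 were Asns (0.0525), Hmgcs1 (0.0693) and Bcat1 (0.0853), which act in asparagine synthesis, sterol synthesis and branched-chain amino acid breakdown. Wisp2 was nearest to P4ha2 (0.0396), a collagen prolyl hydroxylase subunit, Elovl1 (0.0537) and Tigar (0.0575). For Nov they were Sema6d (0.0951), Gla (0.0978) and Enpep (0.0990). These are descriptions over libraries of 3 groups, in which any genes with alike changes come out near each other.

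Genes that act around the CCN proteins were taken from lists by role, and each list is described by its counts beside the share of all genes given above. The median log2 change of all genes tested was 0.00 in each contrast against DMSO and 0.01 for blebbistatin against Y27632. Of the regulators of CCN transcription, 19 of 20 were tested. With blebbistatin 8 were higher, 9 lower and 2 not called, with a median of -0.01, and with Y27632 6 were higher, 7 lower and 6 not called, with a median of 0.03. The TEAD genes did not move together. With blebbistatin Tead3 fell by 1.16, Tead1 fell by 1.09 and Tead4 fell by 0.92 on the log2 scale, as did Vgll3, a TEAD cofactor, with -1.46, whereas Tead2 rose by 0.43 (limma adjusted p from 4.41e-12 to 1.38e-05). RNA of the co-activators themselves was slightly higher with blebbistatin, by 0.13 for Yap1 and 0.33 for Wwtr1, which encodes TAZ. With Y27632 Tead4 changed by -0.94, Tead3 by -0.72, Tead1 by -0.36, Vgll3 by -0.33, Tead2 by 0.23 and Wwtr1 by 0.22, and Yap1 (0.03, limma adjusted p = 0.462) was not called. Serum response factor, Srf, changed by -0.56 and -0.20 and its cofactor Mkl1 by -0.51 and -0.31 in the blebbistatin and Y27632 contrasts. Mkl2 went the other way with blebbistatin (0.32, limma adjusted p = 0.00037). With Y27632 Mkl2 was not called (-0.02, limma adjusted p = 0.810). Vgll4, unlike Vgll3, rose by 0.67 with blebbistatin and was not called with Y27632 (-0.08, limma adjusted p = 0.207). Smad2 changed by -0.60 and -0.14 in the blebbistatin and Y27632 contrasts. Smad3, the TGF-beta mediator, fell by 0.21 with blebbistatin and rose by 0.48 with Y27632, and between the treatments it was lower with blebbistatin (-0.67, edgeR adjusted p = 2.38e-09).

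Of other YAP/TAZ targets, 21 of 21 were tested. With blebbistatin 15 were lower, 4 higher and 2 not called (median -0.49), and with Y27632 11 were lower, 5 higher and 5 not called (median -0.26). The changes with blebbistatin were largest for Amotl2, an angiomotin that restrains YAP (-2.23), the kinase gene Nuak2 (-1.98), Ajuba (-1.46) and, upwards, the stress gene Gadd45a (1.89). With Y27632 they were largest for Ajuba (-0.64), Ankrd1 (-0.57), Nt5e (0.56) and Amotl2 (-0.49). Cyr61 and Ctgf, at -0.13 and -0.11 (-0.18 to -0.024 for Ctgf when 1 library was left out), thus lay nearer to 0 than the median of this list with Y27632 and below it with blebbistatin.

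Of the CCN receptors and co-receptors, 11 of 12 were tested. With blebbistatin 2 were higher, 4 lower and 5 not called (median -0.02), and with Y27632 5 were higher, 1 lower and 5 not called (median 0.12). The integrin subunit Itgb3 rose in both contrasts, by 0.91 and 0.51, and its partner Itgav fell in both, by 0.36 and 0.26. Igf2r rose by 0.67 with blebbistatin and by 0.21 with Y27632. Lrp6 fell by 0.31 and Itgb1 fell by 0.21 with blebbistatin, and Notch1 rose by 0.27 and Itgb5 by 0.24 with Y27632. Sdc4, the heparan sulfate co-receptor, fell by 0.28 with blebbistatin and rose by 0.35 with Y27632, and between the treatments it was lower with blebbistatin (-0.62, edgeR adjusted p = 4.23e-08).

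Of the growth factors and matrix proteins that CCN proteins bind, 10 of 13 were tested, and Vtn, Acan and Bmp7 lay below the filter. With blebbistatin 2 were higher, 5 lower and 3 not called (median -0.16), and with Y27632 3 were higher, 2 lower and 5 not called (median -0.04). Bmp4, which Ctgf binds and antagonises, fell by 2.07 with blebbistatin and by 0.66 with Y27632. Tgfb1, which is also in the list of regulators, rose by 0.73 and 0.22, Dcn rose by 0.28 and 0.31, and Vegfa fell by 0.68 and 0.18. Igf1 fell by 0.43 with blebbistatin and was not called with Y27632 (-0.08, limma adjusted p = 0.449). Bmp2 rose by 0.64 with Y27632 and was not called with blebbistatin (0.06, limma adjusted p = 0.742). Fn1, encoding fibronectin, was not called in either contrast, with 0.04 (limma adjusted p = 0.486) and -0.05 (limma adjusted p = 0.462).

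Proteases that cleave CCN proteins and release their fragments were tested for 5 of 12 genes, and the other 7 had too few counts in these cells. All 5 had mean normalised counts of at least 508.9 in DMSO, so each would have passed the filter on its DMSO level alone. All 5 rose in both contrasts, with a median of 1.18 for blebbistatin and 0.39 for Y27632. The collagenase gene Mmp13 rose from a mean of 508.9 ± 25.6 to 7223 ± 239 (SD, n = 3 each) with blebbistatin, a log2 change of 3.83, and by 2.63 with Y27632. Mmp3, stromelysin 1, rose by 1.81 and 0.99, Mmp14, a membrane-bound protease, by 1.18 and 0.31, and the gelatinase genes Mmp2 by 0.92 and 0.39 and Mmp9 by 0.19 and 0.18. Cleavage of CCN proteins was not measured.

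The other matricellular genes, 12 of 12 tested, were mixed. With blebbistatin 4 were higher, 5 lower and 3 not called (median -0.12), and with Y27632 5 were higher, 4 lower and 3 not called (median 0.09). Thbs1, encoding thrombospondin 1, fell by 2.31 with blebbistatin and by 0.41 with Y27632, whereas its relative Thbs2 rose by 0.69 and 0.43 and Tnxb, a tenascin, by 1.15 and 0.47. Sparcl1 rose by 0.53 and 0.12, and Spp1, osteopontin, by 0.39 in both contrasts. As in the CCN family, members of this class with related proteins changed in opposite directions under the same treatment, and the plot of the lists shows this spread.

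**Figure D4:**
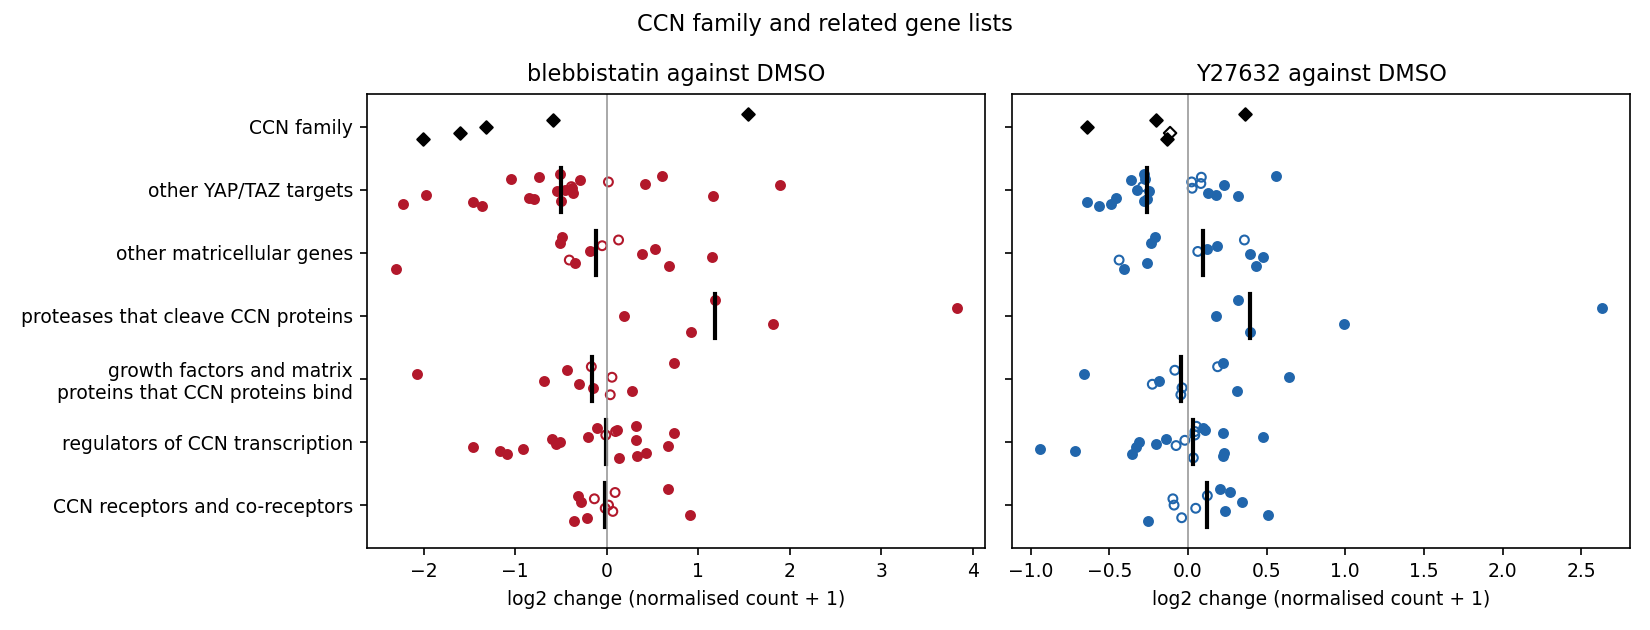
Log2 change of normalised count + 1 (x axis) of the CCN members (black diamonds, top row) and of the genes of 6 related lists (circles, other rows) for blebbistatin (left) and Y27632 (right) against DMSO; filled symbols were called at a limma adjusted p under 0.05, open symbols were not, and the black bars are list medians. The scales of the panels differ; the 5 proteases lie to the right of 0 in both panels, and the medians of the other YAP/TAZ targets are -0.49 and -0.26.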

How the data were processed

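The RNA tables hold, per gene and library, a signal as the authors deposited it, read counts scaled by a size factor for each library and table. All values above 0 (100%) were whole multiples of 1 step within 0.001 read, and DMSO reads recovered from either table were equal at all 35972 shared genes. The site tables hold log2 group means and a log2 fold that the authors deposited, with a p-value and an FDR column, per the file headers. Per the file headers, the annotation also gives other values, the distances to transcription starts. The submitters' processing notes name HISAT2, featureCounts, Picard, DESeq2, Bowtie2, SAMtools, MACS2, DiffBind, HOMER and mm10; how each was used is not given in the sources used here. The reference column of the table of doxycycline without blebbistatin is headed as blebbistatin without doxycycline. It was read as the group with neither drug, which the labels assign to it, because at 13 identical sites its values differed from that group by -0.13 (SD 0.0044) and from the headed group by 1.12 (SD 0.184).

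Here each table was fitted in R 4.3.3 (limma 3.58.1, trended variance) on log2(normalised count + 1), a scale that understates the change of low genes, for genes with a mean of at least 10, and adjusted over all genes tested. The treatments were compared with edgeR 4.0.16 (TMM) on the recovered reads. Both fits were tested on simulated data. Site values were described and not tested. The number of sites tested was estimated from p-value, rank and FDR. The members and lists were chosen with earlier results of these data known. Named were all members, every site assigned to them, up to 4 called genes per list and treatment with the largest change, and the 3 genes most like each member. Yap1, Wwtr1, Tead2, Vgll4, Srf, Mkl1, Mkl2, Smad2, Fn1, Mmp9, Itgb1 and Itgb5 were named after their values were seen. So were other list genes in a contrast where they fall outside that rule. Alternatives were other pseudocounts, filters, scalings, tools, site thresholds, a replicate block and leaving out each library. Sample columns without a label numbered 0.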

Additional observations from a re-analysis of the deposited data

How the results depend on the processing

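Over 27 results and 310 alternatives, 296 kept their direction and their side of the threshold, or, for counts, stayed within 1.5 times; 0 reversed. The call of Cyr61 with Y27632 (-0.13) was the call of a member that was lost: leaving out single libraries gave -0.17 to -0.089 with limma adjusted p from 0.0122 to 0.162, and 3 to 4 members called. Counts of member sites depended on thresholds. At an FDR of at most 0.01 the ATAC tables kept 1 site with blebbistatin and 1 with Y27632. At an absolute log2 fold of at least 1.5 there were 0 left for Y27632, 2 for blebbistatin without doxycycline, 0 for doxycycline and 0 for blebbistatin with doxycycline. Within 100 kb of the start there were 3, 1, 7 and 5 in the first 4 tables. Genes called ranged over 6618 to 7934 with blebbistatin and 4103 to 5350 with Y27632. Same-numbered libraries did not deviate together (correlations of -0.087 to 0.043), and differently numbered ones gave -0.0915 to 0.0898. These values cannot show whether the numbers pair the libraries. With a replicate block 7604, 4633 and 7700 genes were called for blebbistatin, Y27632 and the direct comparison, with 5, 4 and 5 members. The block changed no call of a member.

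With 3 libraries per group, the small changes of Cyr61 (-0.13, SE 0.0449) and Ctgf (-0.11, SE 0.0759) with Y27632 moved with single libraries. How small a change these data resolve for other genes was not tested. Site depth is unknown, since the tables hold group means. The tables list only sites past a threshold, so a site missing from one was not shown to be equal between groups. Assignment of a site to a gene rests on distance.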

Other observations

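Sites beside members that the authors assign to other genes also took the direction that most sites of each table had. Of all sites, 4.15% were lower with doxycycline and 99.8% were lower with blebbistatin in cells with doxycycline. Within 100 kb of Cyr61, the authors' deposited tables hold 2 sites assigned to Ddah1 that are higher with doxycycline (1.47 and 1.51) and 2 that are lower with blebbistatin in cells with doxycycline (-1.0 and -1.05). The site with 1.47 is also the site with -1.0. Both comparisons use the group with doxycycline alone, so these folds are not independent. Within 100 kb of Wisp2, 1 site assigned to Ada is higher with doxycycline (1.37) and lower when blebbistatin was added (-1.01), per the authors' deposited tables. Within 100 kb of Wisp1, sites assigned to Ndrg1 and Sla are lower with blebbistatin in cells with doxycycline (-1.15 and -1.25), per the authors' deposited table.

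The authors' deposited RNA tables, with DESeq2 columns, give Cyr61 an adjusted p of 0.0242 and Ctgf one of 0.544 with Y27632, on the same side of the threshold as the limma values of the report.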
